A study of Homo sapiens with 47 samples.

Results

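The 32 genes described here make cholesterol and long-chain fatty acids, or set how fast a cell makes them. They were taken by their known function from 57507 genes in the table, by a rule that uses no measured value but was written with earlier results of these data known, and all 32 passed the filter on low values in each comparison. Of them, 7 act in the mevalonate pathway, 11 in building and trimming the sterol ring, 6 in the SREBP control system and 8 in fatty acid synthesis and modification. Their transcripts were measured by bulk RNA sequencing in cells carrying hypomorphic alleles of *NUP58*, which encodes a nuclear pore protein, and in unedited controls. In these bulk libraries, less transcript per cell and fewer expressing cells cannot be told apart.

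The HAP1 set held 32 libraries of the near-haploid chronic myeloid leukemia line HAP1, with 4 libraries each of untransfected wild-type cells (WT), cells given a Cas9 vector without guide RNA (EV), and the mutant clones C1, C2, C3, C4, C5 and C6. Each clone grew from 1 cell transfected with Cas9 and paired guide RNAs aimed at *NUP58*, was among the smallest viable colonies, and was sequenced before long-term passaging. The HCT116 set held 15 libraries of the near-diploid colorectal cancer line HCT116: 4 of 1 *NUP58*-mutated clone and 11 of unedited controls (WT, EV1 and EV2). The titles and genotypes of 2 HCT116 controls numbered 4 name different controls, both unedited, so the 11 controls formed 1 group. The clones differed from WT by *NUP58* editing and by transfection with single-cell derivation together, which cannot be told apart against WT alone, and EV went through a transfection without a guide. Each mutant line was 1 clone, so a p-value against it measures the spread between cultures of that clone. The study calls the 4 libraries of a HAP1 line independent experimental replicates and describes the HCT116 libraries as technical replicates in one place and as biological replicates in another.

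Cholesterol synthesis starts from acetyl-CoA, which the mevalonate pathway turns into farnesyl diphosphate, and continues through squalene and lanosterol to cholesterol. SREBP transcription factors sit in the endoplasmic reticulum membrane with their escort SCAP. When sterols are low they move to the Golgi, are cut, and their released part enters the nucleus through the pore and raises transcription of most genes in this set, while INSIG proteins hold the complex back when sterols are plentiful. SREBP proteins act in promoters together with other factors, among them NF-Y, which binds the letters CCAAT.

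Stretches around these letters are shown for the 6 members called lower below in C5, in C6 or in all clones together. Each is the one nearest to an annotated start among those whose 29 bases ended before that start. The letters are in capitals (CCAAT, or ATTGG where they lie on the opposite strand). *PMVK* and *ELOVL6*, which were called higher in C6, had no such letters in their windows. Of the 28 members with windows, 20 held the letters in any of them, beside 43.5% of genes tested. Whether the letters go with the direction of a difference was not tested. The stretches are 29 bases long, 5′ to 3′ on the strand of the gene, from RefSeq promoter sequence of GRCh38.p14. The stretch of *ACLY* covered chr17:41919029-41919057 on the minus strand, with its first capital letter 23 bases before the start. This start lies inside the gene as annotated by GENCODE (chr17:41866917-41930542) and away from its outer end. *ACLY* had 2 windows, and 2 held the letters. The stretch of *HMGCS1* covered chr5:43313496-43313524 on the minus strand, with its first capital letter 100 bases before the start. That of *MVD* covered chr16:88663160-88663188 on the minus strand, with this letter 85 bases before the start. The stretch of *NSDHL* covered chrX:152830967-152830995 on the plus strand, with its first capital letter 84 bases before the start. That of *EBP* covered chrX:48521766-48521794 on the plus strand, with this letter 30 bases before the start. That of *IDI1* covered chr10:1048957-1048985 on the minus strand, with this letter 87 bases before the start.
ACLY: gaacgcgtgtggCCAATcgcggggccgtt
HMGCS1: ctaccggccgcgATTGGctgtgggagcca
MVD: ggctcgcacgggCCAATcctgtggtagcg
NSDHL: cgccgagctgggCCAATcctcttggtgga
EBP: cttcgcttcaccATTGGctcgctccgtaa
IDI1: ctggcgcgagcgATTGGctgcgcggcccg

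Windows of 300 bases around annotated starts were at hand for 28 of the 32 members, 40 windows in all; *ACAT2*, *FDFT1*, *SQLE* and *FASN* had none. CCAAT or ATTGG stood in 24 of these 40 windows (60.0%), against 34.61% of all 35116 promoter windows and 34.67% of the 13924 windows of genes tested here. The letters TCACNCCAC or their reverse complement GTGGNGTGA, written for one known sterol response element, stood in 1 of the 40 windows (2.5%), that of *SREBF2*, against 1.13% of all windows. The windows of 8 members held neither set of letters: *PMVK*, *CYP51A1*, *SREBF1*, *SCAP*, *INSIG2*, *ELOVL6*, *FADS1* and *LPIN1*. These counts describe letters in a fixed window and no binding was measured.

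*NUP58*, the edited gene, had an FPKM of 34.3, 34.7, 50.4 and 45.8 in WT and ranged from 7.98 to 28.0 in the 24 clone libraries, highest in C4. The difference was -1.48 on the log2 scale (adjusted p = 9.591e-09). In HCT116 it was 25.3, 23.3, 44.7 and 24.3 in the clone libraries 1 to 4 and 23.9 to 50.3 in the controls, so the libraries labelled clone 3 and EV2 3 went against their labels. The counts of members called in the HCT116 clone are therefore also given without the libraries numbered 3. Blood markers were at or near 0 in both lines (highest FPKM 0.149 for *CD34* in HAP1 and 0.251 for *HBG1* in HCT116), so HAP1 did not show the defining markers of blood cells, while HCT116 expressed *EPCAM* at 102 to 272 FPKM and *CDX2* at 4.19 to 9.33 FPKM, with *VIL1* at no more than 0.136 FPKM. The deposited FPKM, fragments scaled to transcript length and to the mapped total, carry no count, so the depth of each library is unknown.

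The first comparison asked which of these genes differed between the 6 HAP1 mutant clones and WT. *ACLY*, the enzyme that makes cytosolic acetyl-CoA from citrate and so feeds both cholesterol and fatty acid synthesis, was lower in the clones by 1.31-fold, and no other member passed an adjusted p of 0.05. That is 0 of 32 members higher and 1 lower, against 3.17% and 3.43% of all 13180 genes tested, so the share of members called was close to the background. Of the 32 members, 25 had a mean log2 difference below 0 and 7 above it, 10 had an unadjusted p under 0.05, and the median difference was -0.23, beside -0.017 over all genes tested. The shares of all genes below 0 and at that unadjusted threshold are not given here. With the replicate number as a block 5 members were called, beside 5.53% of all genes higher and 7.06% lower. They were *ACLY* (adjusted p = 0.000269), *NSDHL* (adjusted p = 0.0059), *MVD* (adjusted p = 0.0330) and *EBP* (adjusted p = 0.0363), all lower, and *PMVK* (adjusted p = 0.0303), higher. The numbers were taken to pair the libraries of EV and C1 to C4 with those of WT, whose deviations were correlated in every pair. For C5 and C6 this held in only part of the pairs (correlations -0.03 to 0.68 and -0.37 to 0.42), so whether the block suits them is uncertain. The sign held in 50 of 50 alternative settings for 23 members, 19 of them below 0 and 4 above.

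The FPKM of *ACLY* was 114, 110, 94.4 and 107 in WT, 112, 112, 98.2 and 105 in EV, and 66.4 to 99.3 (median 80.6) in the 24 clone libraries. In 21 of the 24 clone libraries it lay below every WT and every EV library, so the groups overlapped only at the edge. The log2 fold change of FPKM + 1 was -0.39 (SE 0.07, adjusted p = 0.000665). Against EV it was -0.40 (adjusted p = 0.0005). These p-values rest on the spread between libraries of a line and not on that between clones. With the means of the 8 lines as the units, which leaves 8 values, WT and EV together were the reference. *ACLY* was then at -0.40 with an adjusted p of 0.0948 in limma, and it was called in the 49 other alternatives that kept the threshold. Asking instead for an unadjusted p under 0.01 and a fold over 2 called no member.

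**Figure D1:**
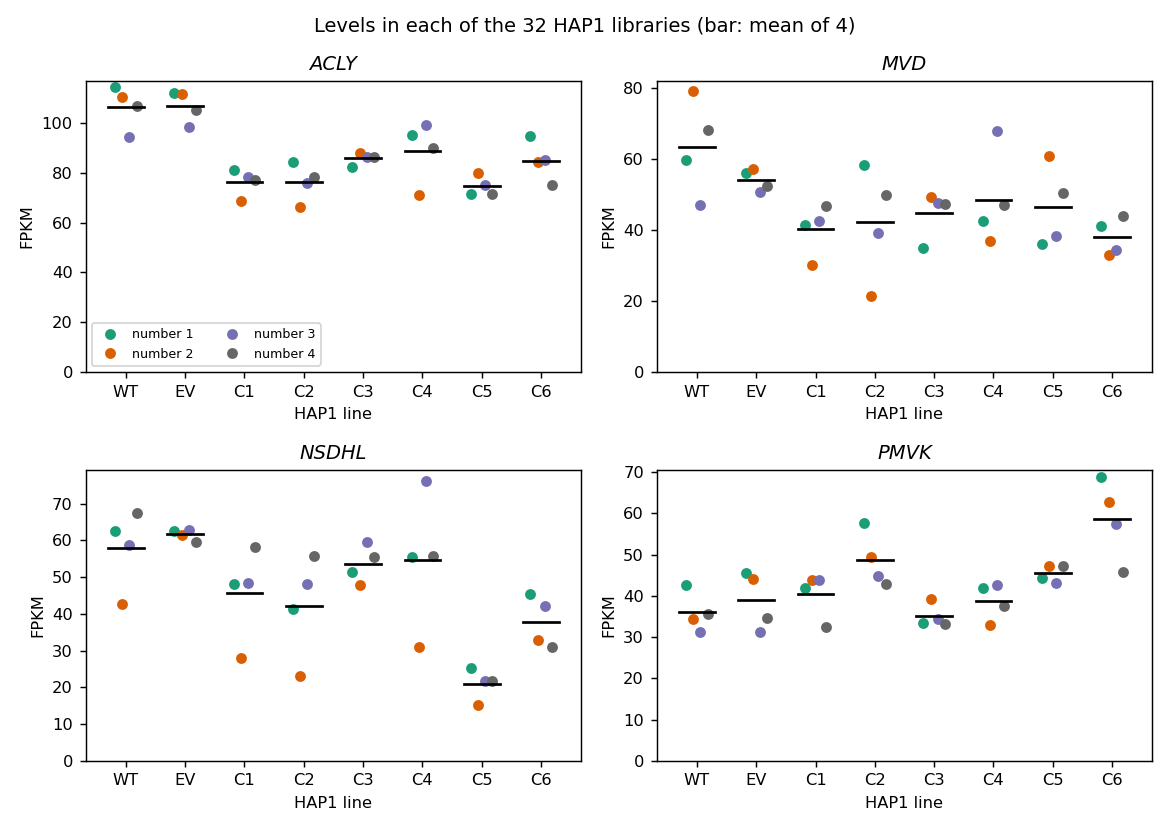
FPKM (y axis) of *ACLY*, *MVD*, *NSDHL* and *PMVK* in each HAP1 library by line (x axis); each point is 1 library coloured by its replicate number and the bar is the mean of 4. *ACLY* lay at 94.4 or above in all WT and EV libraries and at 99.3 or below in all clone libraries, whereas *NSDHL* was lowest in C5 and *PMVK* highest in C6.

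The next members by p-value missed the threshold. *MVD*, which decarboxylates mevalonate diphosphate, had an FPKM of 59.7, 79.2, 46.997 and 68.2 in WT, 56.0, 57.3, 50.8 and 52.4 in EV, and 21.4 to 68.1 (median 42.6) in the clones. It lay below all WT libraries in 15 of 24 clone libraries, and the log2 difference was -0.55 (SE 0.17, adjusted p = 0.0516). *MVD* passed in 15 of 50 alternatives: with the replicate block, with TPM, with WT and EV together as the reference, with log2 *ASNS* as a covariate, and with the left-out libraries or clones named next. It passed when any 1 of 8 libraries was left out (C2 1, C2 2, C2 4, C5 2, C4 3, C1 4, C6 4 or WT 3), with a difference of -0.50 to -0.68, and when clone C2, C3 or C4 was left out.

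*NSDHL*, a sterol dehydrogenase that helps remove methyl groups from the sterol ring, had an FPKM of 62.6, 42.6, 58.8 and 67.4 in WT and 15.3 to 76.2 (median 46.6) in the clones. The groups overlapped, with 11 clone libraries below all WT libraries and 1 above, and the log2 difference was -0.52 (SE 0.18, adjusted p = 0.0892). EV was tight at 62.5, 61.5, 62.7 and 59.7, and against EV *NSDHL* was lower, at -0.63 on the log2 scale (adjusted p = 0.0289). It also passed against WT when clone C4 was left out (-0.59, adjusted p = 0.0265). In all it passed in 7 of 50 alternatives and ranged from -0.65 to -0.34 over them (highest adjusted p = 0.374 in limma). Clone by clone, the difference from WT was -1.42 in C5, -0.60 in C6 and between -0.50 (C2) and -0.09 (C3) in C1 to C4.

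*PMVK*, which phosphorylates phosphomevalonate, went the other way. Its FPKM was 42.7, 34.3, 31.2 and 35.7 in WT, 45.7, 44.1, 31.2 and 34.7 in EV, and 32.4 to 68.7 (median 43.5) in the clones. It lay above all WT libraries in 14 of 24 clone libraries, but the EV libraries covered much of that range. The difference was 0.28 (SE 0.10, adjusted p = 0.0976), and it passed when clone C3 was left out (0.34, adjusted p = 0.0433), with the replicate block, with WT and EV together as the reference and with log2 *ASNS* as a covariate, 4 of 50 alternatives.

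By role, most members of the mevalonate and sterol ring groups were below 0 against WT and against EV, whereas the SREBP system and the fatty acid genes were divided. Differences between the role groups were not tested. In the mevalonate pathway 6 of 7 members were below 0, with a median of -0.37 (6 of 7 and -0.35 against EV), including *HMGCS1*, which makes HMG-CoA (-0.55, adjusted p = 0.229), *ACAT2*, which joins acetyl-CoA units (-0.50, adjusted p = 0.270), *FDPS*, which makes farnesyl diphosphate (-0.37, adjusted p = 0.134), *IDI1*, the isopentenyl diphosphate isomerase (-0.29), and *MVK*, mevalonate kinase (-0.23). Among the 11 enzymes of the sterol ring 10 were below 0, with a median of -0.31 (9 and -0.17 against EV). These were *TM7SF2*, a sterol reductase (-0.35), *EBP*, the sterol isomerase (-0.32), *DHCR7*, which takes the last step to cholesterol (-0.32), the sterol ketone reductase *HSD17B7* (-0.31), *FDFT1*, squalene synthase (-0.31), *SQLE*, squalene epoxidase (-0.16), *LSS*, which closes the ring (-0.15), the methyl oxidase *MSMO1* (-0.04) and the desaturase *SC5D* (-0.01) besides *NSDHL*, with *CYP51A1*, the lanosterol demethylase, at 0.01.

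In the SREBP system 3 of 6 members were below 0 against WT, with a median of -0.13, and 2 of 6 against EV, with a median of 0.02. The retention factor *INSIG1* was at -0.50 (adjusted p = 0.217), the sterol carrier *STARD4* at -0.30 (0.03 against EV) and the transcription factor *SREBF1* at -0.29, while *INSIG2* was at 0.13, the escort *SCAP* at 0.04 and *SREBF2* at 0.03. Of the 8 fatty acid genes 6 were below 0 against WT, with a median of -0.12, but 3 against EV, with a median of 0.02, and 4 against WT without the libraries numbered 2. Besides *ACLY* these were *LPIN1*, a phosphatidate phosphatase (-0.22, and 0.09 against EV), *FADS2*, a desaturase (-0.22), *FASN*, the fatty acid synthase (-0.13), *ACACA*, which makes malonyl-CoA (-0.10), and *SCD*, stearoyl-CoA desaturase (-0.04), with the desaturase *FADS1* at 0.10 and the elongase *ELOVL6* at 0.03. *FADS1* and *FADS2* overlap on opposite strands of chromosome 11, and whether reads were counted by strand is not given in the sources used here, so their values are uncertain.

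Against EV, 2 of 32 members were lower (*ACLY* and *NSDHL*) and 0 higher, beside 4.29% and 4.18% of all genes. Against EV 20 members were below 0 and 12 above, and the median was -0.12, beside -0.23 against WT. EV and WT are both unedited, and EV against WT called 0 of 32 members and 0.038% of all genes in limma. There 1 member had an unadjusted p under 0.05, with no share of all genes given for that threshold. With the libraries numbered 2 left out, a choice made after the data were seen, 2 members were lower and 0 higher, beside 3.23% and 2.86% of all genes: *ACLY* (-0.35, adjusted p = 0.00297) and *NSDHL* (-0.49, adjusted p = 0.00774). The median over the members was then -0.14.

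Of 36 other genes of these pathways 35 passed the filter, and 2 of the 35 were called in the clones against WT, both lower and both in fatty acid modification. Of all genes tested, 3.43% were called lower and 3.17% higher. *SCD5*, a second stearoyl-CoA desaturase, had an FPKM of 10.1, 10.7, 11.5 and 12.8 in WT and 4.42 to 10.0 (median 7.17) in the clones. Every clone library lay below every WT library, although the EV libraries reached down to 7.95, and the difference was -0.66 (adjusted p = 2.858e-04). Such a gap below WT was seen in 0.243% of all genes tested and in 0 of the 32 members. *ELOVL5*, an elongase of polyunsaturated fatty acids, was at -0.27 against WT (adjusted p = 0.00325) but at -0.09 against EV, where it was not called, and at -0.20 (adjusted p = 0.0571) against WT without the libraries numbered 2. None of the 7 genes that cut or hold SREBP, the 8 of isoprenoid and sterol handling and the 4 LXR targets that were tested passed in limma, with 1 of the 7, 3 of the 8 and 0 of the 4 at an unadjusted p under 0.05. The share of all genes at that unadjusted threshold is not given here.

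**Figure D2:**
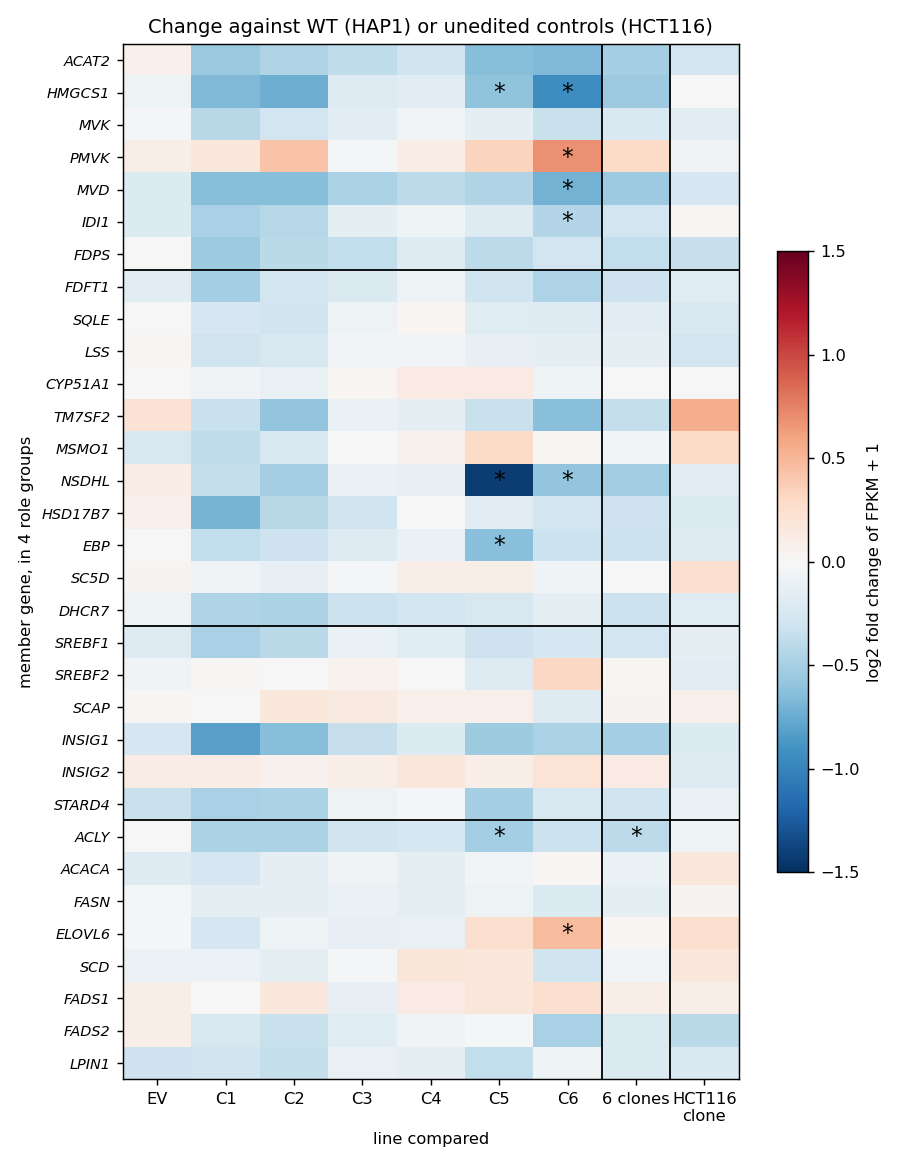
Log2 fold change of FPKM + 1 (colour) of the 32 members (rows, in the role groups mevalonate, sterol ring, SREBP system and fatty acid) against WT in EV, each HAP1 clone and the 6 clones together, and against controls in the HCT116 clone (columns); a star marks an adjusted p under 0.05. The stars are 4 in C5, 6 in C6 and 1 (*ACLY*) in the 6 clones together, with none in EV, C1 to C4 or HCT116.

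Tested clone by clone, the calls came from C5 and C6. In all, 10 member-by-clone differences passed, 8 lower and 2 higher. C1, C2, C3 and C4 each gave 0 calls in limma and 0 in an unmoderated test with unequal variances, with 10, 4, 3 and 0 members at an unadjusted p under 0.05. At the adjusted threshold 0.479%, 0.732%, 0.0911% and 0.16% of all genes passed in either direction, so those clones called few genes of any kind. The share of all genes at an unadjusted p under 0.05 is not given here. The median over the 32 members was -0.35 for C1 and -0.30 for C2, smaller for C3 (-0.10) and C4 (-0.07), and -0.19 for C5 with -0.25 for C6. The clones with the lowest medians were not those with the calls. In C1 and C2 the library numbered 2 was far lowest. Over the 18 mevalonate and sterol ring enzymes, its median difference from the WT mean was -0.95 in C1 and -1.25 in C2. The other libraries were at -0.27 to -0.13 in C1 and -0.23 to 0.04 in C2. With the replicate number as a block, 1 member was lower in C2 and 0 higher, beside 0.678% and 0.549% of all genes. It was *TM7SF2*, which had an FPKM of 21.9, 10.9, 26.4 and 34.5 in C2 and 32.6, 18.4, 42.2 and 48.2 in WT for numbers 1 to 4.

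In C5, 4 of 32 members were lower and 0 higher, beside 4.27% and 3.28% of all genes tested. *NSDHL* had an FPKM of 25.2, 15.3, 21.7 and 21.7, all below the lowest WT value of 42.6, and the difference was -1.42 (SE 0.18, adjusted p = 0.00149). *EBP* stood at 175, 175, 191 and 179 FPKM against 284, 282, 242 and 306 in WT, with no overlap and a difference of -0.62 (adjusted p = 0.00349). *HMGCS1* stood at 83.6, 74.8, 74.9 and 77.8 FPKM against 119, 127, 108 and 121 in WT, a difference of -0.60 (adjusted p = 0.00332). All 4 *HMGCS1* libraries of C5 lay below every WT library. In C5, 6 of 32 members lay wholly below WT and 1 wholly above, beside 8.02% and 8.59% of all genes tested.

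*ACLY* had an FPKM of 71.6, 80.1, 75.2 and 71.6 in C5, below all WT libraries, and the difference was -0.51 (adjusted p = 0.0111). All 4 calls held in each of 18 alternatives that kept the threshold for that clone, except *HMGCS1* in 1 fit of all 32 libraries (adjusted p = 0.272). With an unadjusted p under 0.01 and a fold over 2, 1 member was called in C5. Of the other pathway genes, *SCD5* (-0.66), *ELOVL5* (-0.35) and *FADS3* (-0.75) were lower in C5 and *GPAM*, which starts glycerolipid synthesis, was higher (0.55).

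In C6, 4 of 32 members were lower and 2 higher, beside 5.39% and 6.28% of all genes. *HMGCS1* stood at 72.5, 58.8, 61.5 and 55.5 FPKM, under every WT library, and the difference was -0.93 (adjusted p = 0.000619). *MVD* stood at 41.2, 33.0, 34.4 and 43.9 FPKM, again under the lowest WT value of 46.997, with a difference of -0.71 (adjusted p = 0.0218). *NSDHL* stood at 45.3, 32.8, 42.2 and 31.1 FPKM, which overlapped WT through the WT library numbered 2, and the difference was -0.60 (adjusted p = 0.0485). *IDI1* stood at 78.0, 68.2, 77.5 and 69.6 FPKM against 98.1, 93.5, 97.4 and 109 in WT, a difference of -0.44 (adjusted p = 0.0149). *MVD* and *IDI1* take consecutive steps of the mevalonate pathway, and *NSDHL* acts much later.

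The 2 members that were higher in C6 were *PMVK*, the step just before *MVD*, and *ELOVL6*. *PMVK* had an FPKM of 68.7, 62.9, 57.4 and 45.9, all above the highest WT value of 42.7, and the difference was 0.69 (adjusted p = 0.0142). *ELOVL6*, which lengthens palmitate, stood at 42.9, 43.6, 46.3 and 34.5 FPKM against 30.3, 27.9, 27.2 and 33.5 in WT, a difference of 0.47 (adjusted p = 0.0313). No C6 library overlapped WT for either gene. In C6, 2 of 32 members lay wholly above WT and 5 wholly below, beside 10.6% and 8.39% of all genes tested. The number of calls in C6 rested on single libraries: it fell to 1 without C6 2 and was 3 without WT 1, WT 4 or C6 3, 4 without C6 1, 5 without C6 4 and 8 without WT 2 or WT 3.

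Without all libraries numbered 2, a choice made after the data were seen, C6 had 3 members lower and 0 higher, beside 3.62% and 4.04% of all genes. *NSDHL* in C6 passed in 5 of 18 alternatives, whereas *HMGCS1* in C6 passed in 17 of 18. Of the other pathway genes, *SCD5* (-0.92), *MYLIP*, which marks lipoprotein receptors for breakdown (-1.04), *ACSL3* (-0.64) and *ELOVL7* (-0.57) were lower in C6, and *LBR*, a sterol reductase of the nuclear envelope (0.55), and *ACSL1* (0.43) were higher. What part of these differences came with their chromosomes was not tested.

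*NSDHL* and *EBP* both lie on chromosome X, and in C5 that chromosome as a whole was low. *NSDHL* spans chrX:152830967-152869729 and *EBP* chrX:48521799-48528716, both on the plus strand (GRCh38, GENCODE annotation). The median log2 difference over the 447 chromosome X genes tested in C5 was -0.55, with 84.1% of them below 0, 185 called lower and 8 higher, whereas the median over all chromosomes was 0.0076. In C6 the chromosome X median was 0.05. On chromosome 6, 168 of the 656 genes tested in C6 were called lower and 52 higher, with a median of -0.08. Chromosome 13, which carries *NUP58*, had a median of -0.58 in C5 and -0.52 in C6. Chromosome 22 had a median of -0.24 in C5, with 78.6% of its genes below 0, and chromosome 9 one of -0.14. *SREBF2*, on chromosome 22, was at -0.19 in C5, and its 124 neighbours within 5 megabases had a median of -0.26.

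Within 5 megabases of *NSDHL* the 64 genes tested in C5 had a median of -0.84, and 61 of them were below 0. *NSDHL*, at -1.42, was below that median, and 2 of the 64 were lower still. Around *EBP* the 67 neighbours had a median of -0.45, 65 were below 0, and 19 were lower than *EBP* itself at -0.62. The *EBP* difference in C5 was thus within the range of its neighbours, and what part of either difference came with the chromosome was not tested. *MBTPS2*, which cuts SREBP, and *ACSL4*, which joins fatty acids to coenzyme A, lie on chromosome X as well and were at -0.33 (adjusted p = 0.107) and -0.63 (adjusted p = 0.0513) in C5.

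The 20 neighbours of *HMGCS1* on chromosome 5 had a median of 0.19 in C5, and none was lower than *HMGCS1*. In C6 its 22 neighbours had a median of 0.24 and again none was lower. For *NSDHL* in C6, 65 neighbours had a median of -0.02 and 5 were lower. *HMGCS1* was thus below every tested neighbour in both clones.

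The spread of the members inside a line was uneven. As a summary, the difference of log2(FPKM + 1) from the WT mean was taken for each of the 18 mevalonate and sterol ring enzymes in each HAP1 library, and the median over the 18 was kept. It was -1.25 in C2 2, -0.95 in C1 2 and -0.53 in C4 2, and between -0.42 and 0.25 in the other 29 HAP1 libraries. In those 3 libraries 17, 17 and 18 of the 18 enzymes were below the WT mean. *HMGCS1* had an FPKM of 27.0 in C2 2, 32.6 in C1 2 and 55.8 in C4 2.

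The same 3 libraries had the highest levels of *ASNS*, asparagine synthetase, a gene of the amino acid response, at 428 FPKM in C2 2, 451 in C1 2 and 434 in C4 2. WT 2 had *ASNS* at 251 FPKM with a median of 0.05 over the 18 enzymes, so the 2 measures did not move together in every library. Log2 *ASNS* entered only as a covariate in alternative fits of the clones, given with the other alternatives. Such fits do not give the part of the amino acid response in the enzyme levels, which was not tested.

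**Figure D3:**
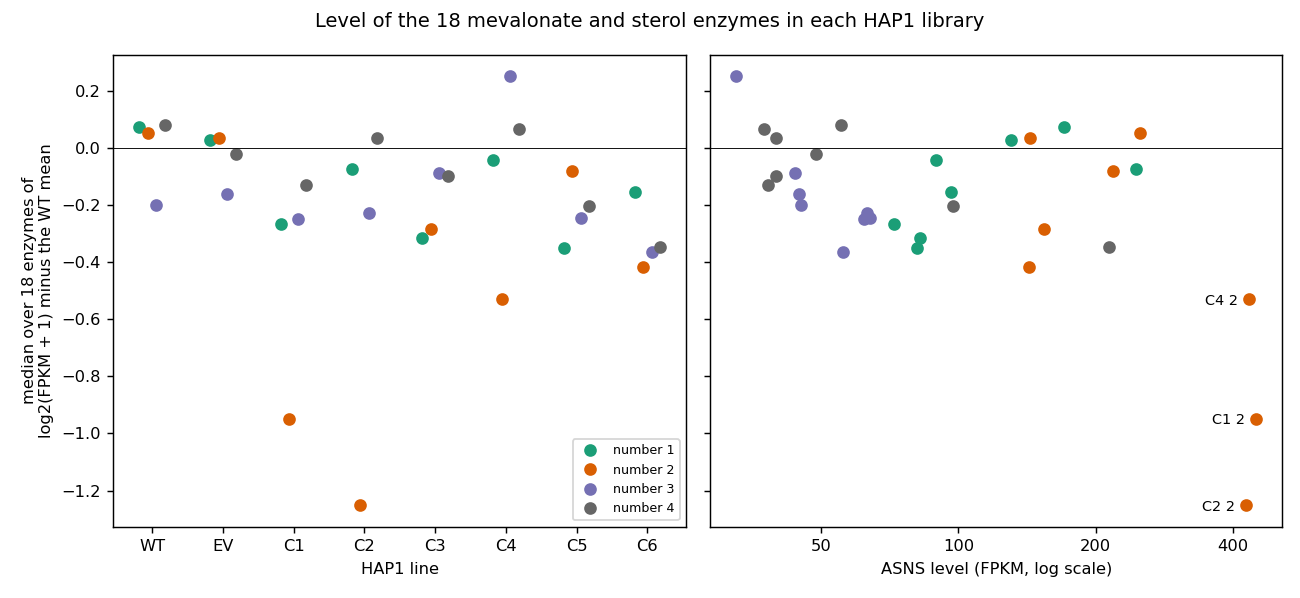
Median over the 18 mevalonate and sterol ring enzymes of log2(FPKM + 1) minus the WT mean (y axis) in each of the 32 HAP1 libraries, by line (left) and against *ASNS* in FPKM on a log axis (right); points are libraries coloured by replicate number. C2 2, C1 2 and C4 2 lay at -1.25, -0.95 and -0.53, and these are also the libraries with the most *ASNS*.

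Libraries with the same replicate number shared part of this pattern across lines. In HAP1 18 of 32 members differed by replicate number, beside 52.8% of all genes, so members followed the number about as often as other genes did. *SREBF2*, the main SREBP of cholesterol synthesis, ranged over 63.2 to 123 FPKM (median 90.0) in the 8 libraries numbered 2 and over 40.9 to 60.0 (median 50.3) in those numbered 3, with no overlap (adjusted p = 0.000377). Its deviation from the line mean was above 0 in 7 of 8 lines for number 2, with a mean of 0.44, and below 0 in 8 of 8 for number 3, with a mean of -0.41.

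*TM7SF2* (adjusted p = 0.0003995), *NSDHL* (adjusted p = 0.0005382) and *SC5D* (adjusted p = 0.00126) went the other way, below the line mean in 8 of 8 lines for number 2. *TM7SF2* ranged over 10.9 to 38.2 FPKM (median 21.3) at number 2 and over 20.9 to 51.8 (median 40.7) at number 4. *NSDHL* ranged over 15.3 to 61.5 FPKM (median 31.9) at number 2 and over 21.7 to 67.4 (median 55.7) at number 4. *SC5D*, a sterol desaturase, ranged over 22.0 to 34.9 FPKM (median 28.5) at number 2 and over 33.9 to 44.7 (median 37.7) at number 3. The ranges overlapped for all 3 genes.

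At number 2 the mean deviation was -0.54 for *ACAT2* and -0.45 for *HMGCS1*. *ACLY* did not follow the number: its mean deviations lay between -0.05 and 0.07 (adjusted p = 0.351). What a replicate number stands for (day, batch or extraction) is not given in the sources used here.

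In HCT116, 1 of 32 members, *FASN*, differed by replicate number, beside 0.347% of all genes. *FASN* had an FPKM of 235 to 263 (median 246) in the 4 libraries numbered 2 and of 157 to 199 in the other 11 (adjusted p = 0.0422), so the number 2 libraries stood above all others. *DHCR7* (adjusted p = 0.0697), *SQLE* (adjusted p = 0.0959) and *INSIG1* (adjusted p = 0.131) were next. *DHCR7* ranged over 65.5 to 76.2 FPKM at number 2 and over 38.4 to 65.1 elsewhere, *SQLE* over 51.1 to 68.0 and 33.8 to 58.4, and *INSIG1* over 39.4 to 54.4 and 16.4 to 37.7. The mean deviation at number 2 was below 0 in HAP1 and above 0 in HCT116 for 19 members (*HMGCS1*, -0.45 and 0.54), above 0 in both for 9 (*SREBF2*, 0.44 and 0.24), above 0 in HAP1 and below 0 in HCT116 for 3, and below 0 in both for 1, and the difference between the lines was not tested.

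This count rested on single libraries. It was 0 when any 1 of 11 libraries was left out (the 3 controls numbered 1, the 4 libraries numbered 2, EV1 3 and the 3 controls numbered 4), 5 without clone 1 or clone 4, and 2 without clone 3 or EV2 3.

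Among the 6 HAP1 clones themselves 3 of 32 members differed, beside 15.8% of all genes: *NSDHL* (adjusted p = 0.00119), *PMVK* (adjusted p = 0.00229) and *ELOVL6* (adjusted p = 0.00803). *NSDHL* was lowest in C5, as given above, and *PMVK* and *ELOVL6* were highest in C6. *LPIN1* was next and missed the threshold (adjusted p = 0.177). Leaving out all libraries of 1 number at a time gave 1 to 7 members: 1 without number 1 or 3 and 7 without number 2.

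In HCT116 the clone was compared with the 11 unedited controls. No member passed, 0 of 32, and no gene of the 12960 tested passed either (0%). In limma 1 member had an unadjusted p under 0.05, with no share of all genes given for that threshold. This was *FADS2*, which desaturates polyunsaturated fatty acids. It had an FPKM of 7.13, 6.78, 6.69 and 5.81 in the clone libraries 1 to 4 and 5.58 to 12.8 (median 8.89) in the controls. The clone libraries lay at the low end of the controls, and the difference was -0.41 (SE 0.16, adjusted p = 0.393).

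*SC5D* had an FPKM of 32.4, 32.7, 20.8 and 24.9 in the clone and 19.4 to 27.4 (median 22.9) in the controls, a difference of 0.24 (adjusted p = 0.519). *ELOVL6* had an FPKM of 28.5, 26.8, 21.7 and 32.9 in the clone and 17.5 to 31.1 (median 22.8) in the controls, a difference of 0.24 (adjusted p = 0.568). *FDPS* had an FPKM of 120, 122, 131 and 86.7 in the clone and 87.4 to 228 (median 154) in the controls, a difference of -0.35 (adjusted p = 0.577). Without the libraries numbered 3 the differences were -0.41 for *FADS2*, 0.33 for *SC5D*, 0.35 for *ELOVL6* and -0.41 for *FDPS*. The groups overlapped for each of these genes. Of the 32 members 20 were below 0, and the median difference was -0.15, beside 0.004 over all genes. Without the libraries numbered 3, 17 were below 0 and the median was -0.08, beside 0.02 over all genes. The sign held in 27 of 27 alternatives for 17 members.

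Without the libraries numbered 3 the clone still called 0 members in limma, beside 3.62% of all genes called higher and 2.29% lower. At an unadjusted p under 0.05 there were 5 members, and the share of all genes at that threshold is not given here. *NUP58* was then at -0.73 (adjusted p = 0.0257), where it had been at -0.46 (adjusted p = 0.452) with all libraries. *TM7SF2* had an FPKM of 58.2, 65.2, 18.2 and 70.2 in the clone libraries 1 to 4, against 14.5 to 71.0 (median 33.2) in all controls, so clone 3 stood far below the other 3. The highest control value was that of EV2 3, the other library whose *NUP58* level went against its label. The difference of *TM7SF2* was 0.55 with all libraries and 1.05 (adjusted p = 0.106) without number 3. When the number was fitted as a block with number 3 left out, 3 members were higher and 0 lower, beside 5.78% and 4.48% of all genes, although the HCT116 numbers were not found to pair samples (1 of 4 pairs). These were *MSMO1*, a sterol methyl oxidase (0.46, adjusted p = 0.0177), *TM7SF2* (1.05, adjusted p = 0.0359) and *SC5D* (0.33, adjusted p = 0.0374).

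The difference between the clone effects in HAP1 and in HCT116 was tested directly. It passed for 0 of 32 members in limma, beside 1.8% of all genes. At an unadjusted p under 0.05 there were 3 members, with no share of all genes given for that threshold. *ACLY* differed by -0.33 (adjusted p = 0.242), *PMVK* by 0.34 (adjusted p = 0.316) and *TM7SF2* by -0.90 (adjusted p = 0.350), each as HAP1 minus HCT116. Without the HCT116 libraries numbered 3, 1 member was lower and 0 higher, beside 4.24% and 2.43% of all genes, *TM7SF2* at -1.41 (adjusted p = 0.0321). The other pathway genes *SCD5* (-0.89, adjusted p = 0.00634) and *ELOVL7*, a fatty acid elongase (-0.53, adjusted p = 0.0436), passed with all libraries, and without the libraries numbered 3 they were at -1.16 (adjusted p = 2.646e-05) and -0.56 (adjusted p = 0.0286).

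The last comparison set the levels of these genes in unedited cells of the 2 cell lines side by side, and most of them were higher in HAP1. Between 8 unedited HAP1 and 11 unedited HCT116 libraries 24 of 32 members differed, 20 higher and 4 lower in HAP1, beside 39.5% and 28.5% of all genes. The median difference over the members was 0.62, beside 0.10 over all genes. Of the mevalonate genes 6 of 7 were higher in HAP1, of the sterol ring enzymes 9 of 11 were higher and 1 lower, of the SREBP system 1 of 6 was higher and 1 lower, and of the fatty acid genes 4 of 8 were higher and 2 lower. Each is 1 cell line, so the comparison is of these lines. The counts were also 20 and 4 without EV2 3.

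*FADS2* had the largest difference. Its FPKM was 130 to 241 (median 195) in HAP1 and 5.58 to 12.8 (median 8.89) in HCT116, with no overlap, a 17.5-fold difference on the FPKM + 1 scale (log2 4.13, adjusted p = 4.246e-17). *HMGCS1* was 108 to 127 FPKM (median 115) in HAP1 and 19.7 to 65.5 (median 28.7) in HCT116, 1.83 higher on the log2 scale (adjusted p = 2.046e-09). *EBP* was 242 to 306 FPKM (median 282) and 59.2 to 125 (median 90.2), 1.69 higher (adjusted p = 2.203e-11). In each of these genes every HAP1 library lay above every HCT116 library. That held for 15 of 32 members, beside 18.5% of all genes, and 1 member lay wholly below, beside 13.8%.

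*NSDHL* was 42.6 to 67.4 FPKM (median 62.0) in HAP1 and 12.4 to 25.9 (median 17.1) in HCT116, 1.64 higher (adjusted p = 1.837e-11), again with no overlap. The 4 members that were lower in HAP1 were *SREBF1* (-1.07), *SCD* (-0.73), *FASN* (-0.34) and *CYP51A1* (-0.24). *SREBF1*, the SREBP that mainly drives fatty acid synthesis, had an FPKM of 27.7 to 74.1 (median 60.8) in HAP1 and 78.0 to 136 (median 116) in HCT116, so every HAP1 library lay below every HCT116 library. *SREBF2* did not pass (0.08, adjusted p = 0.735).

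Of the other pathway genes 27 of 34 differed, 14 higher and 13 lower in HAP1, beside 39.5% and 28.5% of all genes. They were led by *ACSL1* (1.72), *SOAT1*, which esterifies cholesterol (1.53), *MYLIP* (1.29), *ACSL3* (-1.23), *ERLIN1* (-1.18) and *FADS3* (-1.18).

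**Figure D4:**
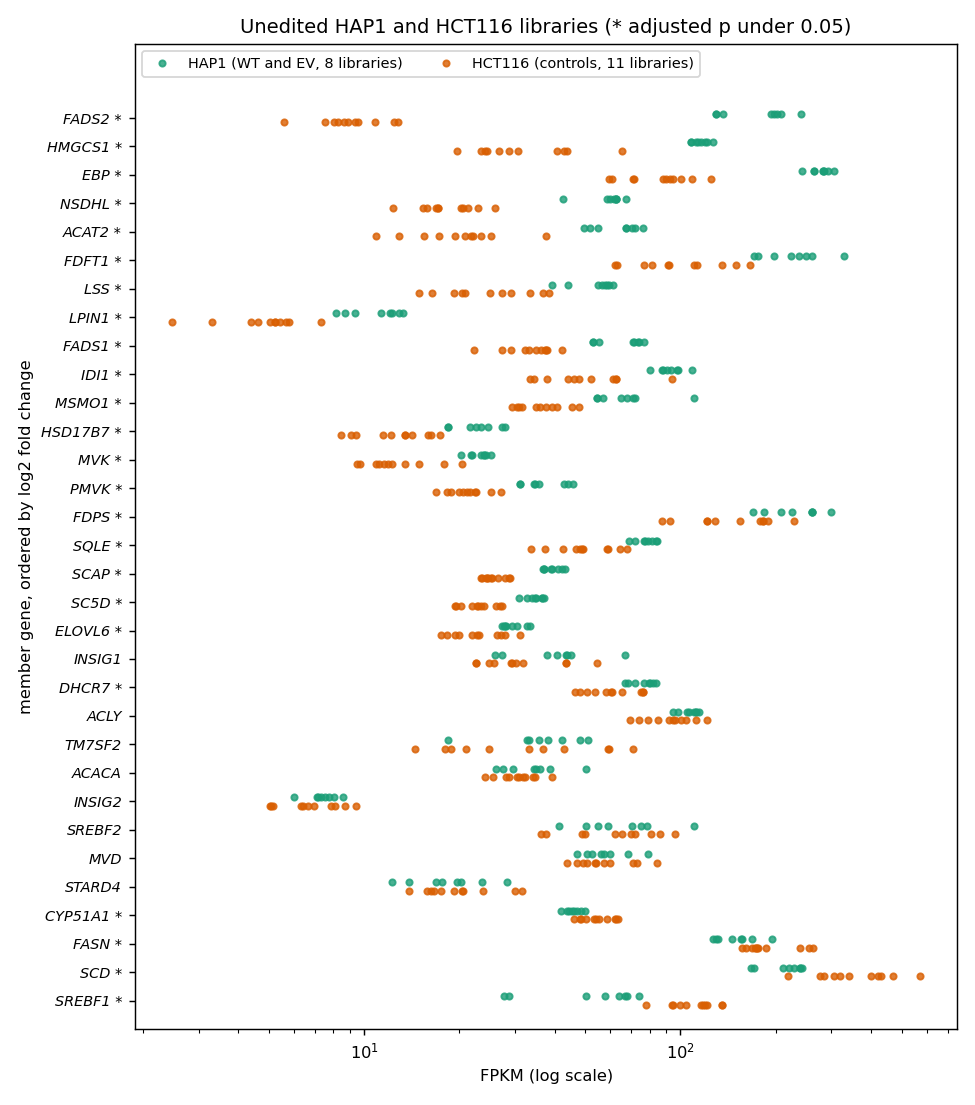
FPKM (x axis, log scale) of the 32 members (y axis, ordered by log2 fold change) in 8 unedited HAP1 and 11 unedited HCT116 libraries; each point is 1 library and a star marks an adjusted p under 0.05. *FADS2* at the top lay at 130 to 241 in HAP1 and at 5.58 to 12.8 in HCT116, and *SREBF1* at the bottom lay at 27.7 to 74.1 in HAP1 and at 78.0 to 136 in HCT116.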

How the data were processed

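RNA was sequenced in 32 HAP1 and 15 HCT116 libraries. The authors trimmed adaptors, checked reads with FastQC, aligned them with STAR to Ensembl GRCh38 and quantified genes with RSEM. The deposited FPKM of the authors were used as given, with no further normalization by them. FPKM hold no depth, so no counting interval can be given. The sum of FPKM per library was 604053 to 654081 in HAP1 and 619798 to 721992 in HCT116, and mitochondrial genes took 3.12% to 11.6% and 5.95% to 21.8% of it. Tools and build are also those of the submitters' processing notes. The annotation version is not given in the sources used here.

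Genes with a mean of at least 1 FPKM over the libraries of a fit were tested on log2(FPKM + 1) with limma 3.58.1 (R 4.3.3; lmFit, eBayes with trend), with Benjamini-Hochberg adjustment over all genes tested and calls at an adjusted p under 0.05. Counts of members at an unadjusted p under 0.05 are given without the share of all genes at that threshold. Fold changes are on the FPKM + 1 scale, which understates changes of low genes. The HAP1 clones were averaged against WT in 1 fit of all 32 libraries, and each clone was also fitted with WT alone. Replicate number and differences among clones were tested by moderated F-tests. The code was tested on simulated data. Same-numbered libraries deviated together from the group means in all 4 pairs with WT for EV and C1 to C4 (correlations 0.149 to 0.747). They did so in 2 of 4 pairs each for C5 and C6, and in 1 of 4 for the HCT116 clone. The pairs not counted had correlations of 0.085 or less. The numbers were therefore taken to pair samples only for EV and C1 to C4, from the data and not from the labels. No pair of libraries had identical values.

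The members and the lists of other pathway genes were chosen with earlier results of these data known. Named were all members by role, with values per library for members called in a comparison (at most 8, or 4 for the number and cell line comparisons) or, where fewer than 4 passed, the 4 with the smallest p, and other pathway genes called (at most 6). Gene positions came from GENCODE on GRCh38 and promoter windows from RefSeq. Alternatives covered the pseudocount, filter, scaling, trend, reference group, replicate block, threshold and left-out libraries. Added after the data were seen were those without all libraries numbered 2, without clone 3 and EV2 3, with the block and EV as reference, with the block and no libraries numbered 3, replicate number in the unedited HAP1 lines alone, and all alternatives for the difference of clone effects.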

Additional observations from a re-analysis of the deposited data

Results flagged for a closer look

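Levels of 20 members were searched for single libraries far from the other 3 of their line, in 200 groups of 4, with the gap to the nearest library set against 0.829 of the whole range. Chance alone gives about 1 in 20, and 8 of the 200 groups were found, a share no larger than chance gives. In C1 2, *ACAT2* was at 17.4 FPKM (others 51.4 to 56.9), *EBP* at 159 (others 231 to 245) and *SREBF2* at 85.4 (others 60.0 to 62.9). *ELOVL6* was at 19.2 FPKM in C2 2 (others 31.7 to 31.9), *MVD* at 35.1 in C3 1 (others 47.4 to 49.5) and *MSMO1* at 94.7 in C6 4 (others 67.1 to 70.6). In the HCT116 library EV2 2, *NSDHL* was at 25.9 FPKM (others 15.8 to 17.1) and *FASN* at 263 (others 174 to 186).

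The clone effect in HAP1 minus that in HCT116 passed the test of the difference for 2 other pathway genes, *SCD5* (-0.89 on the log2 scale, adjusted p = 0.00634) and *ELOVL7* (-0.53, adjusted p = 0.0436), and for no member. The HCT116 side rests on 1 clone, and 1 of its 4 libraries went against its label.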

How the results depend on the processing

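Of 32 members, 23 kept the sign of their mean difference between the 6 HAP1 clones and WT in 50 alternatives and 9 did not; in HCT116 17 kept it in 27 alternatives and 15 did not. The number of members called in the 6 clones against WT was 1. It was 2 on TPM, 5 (1 higher, 4 lower) with the replicate block, 2 with EV as reference, 7 with WT and EV together, 7 with log2 *ASNS* as covariate, 5 with the block and EV as reference, 2 without the libraries numbered 2, and 0 with the means of the 8 lines or with p under 0.01 and fold over 2. Leaving out 1 clone or 1 library gave 1 to 3. *ACLY* ranged from -0.45 to -0.35. For each clone against WT the 10 calls became 6 in an unmoderated test, 17 against EV, 1 with p under 0.01 and fold over 2, and 5 to 14 without 1 replicate number of a line (5 without the clone libraries numbered 2). The replicate block gave 1 call in C2, 9 in C5 and 5 in C6, and it changed no other clone. In C5 and C6 the numbers paired with WT in only 2 of 4 pairs each.

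Replicate number called 18 members in HAP1, 11 without a filter, 10 without C1 (10 to 18 without 1 line) and 5 in the 2 unedited lines. In HCT116 it called 1, 0 with median-ratio scaling or without the trend, 2 without clone 3 and EV2 3, and 0 to 5 without 1 library. Differences among the clones were called in 3 members, and in 1 to 7 without 1 replicate number. The HCT116 clone called 0 members in all alternatives other than the block without number 3, which called 3. The 24 members that differed between the cell lines became 9 with p under 0.01 and fold over 2. The difference of clone effects, 0 with all libraries, was called in 1 member without number 3. The cause of these shifts was not tested. Small differences of low genes are limited by the unknown depth, and each mutant line is 1 clone.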
